A study of Drosophila melanogaster with 4 samples.

Results

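Integrins and the proteins that tie them to actin were examined in BG3 cells, a Drosophila melanogaster line from the larval central nervous system. The genes were taken by symbol: mys, if, mew and scb for integrin subunits, and rhea, Ilk, parvin, stck and Vinc for linkers between integrins and actin. All 9 were present among the 8806 rows of genes and transposable element families in the table of normalized read counts. Cells labelled CapH2 Knockdown had been incubated with 20 µg of dsRNA against Cap-H2, a subunit of the chromosome-compacting complex condensin II, and cells labelled WT with dsRNA against Brown, an eye pigment gene that serves as the control target. Both groups were exposed to dsRNA for 30 min in serum-free medium and then cultured for 4 days, and both had been grown with serum and insulin. Each group held 2 libraries of 1 cell line. The labels do not say whether these came from separate cultures. The p-values here thus reflect library-to-library spread, in limma largely pooled over rows, that may be technical only.

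An integrin is a pair of 1 alpha and 1 beta subunit that spans the cell membrane. Outside the cell it binds matrix proteins such as laminin, and inside the cell the tail of the beta subunit recruits talin, which joins it to actin filaments. A complex of integrin-linked kinase, PINCH and parvin strengthens that bond, and vinculin binds talin that is under tension. In flies these proteins hold muscles to tendons and the cell layers of the wing to each other, and in the nervous system they act in axon guidance, synapse growth and the wrapping of nerves by glia.

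Depth ranged from 21539511 to 21935781 reads per library on genes and element families. The element family copia alone held 23.6% and 23.8% of these reads in the Cap-H2 knockdown and 22.4% and 22.7% in the Brown control. The targeted gene, Cap-H2 (FBgn0037831, at 10761310 to 10766756 of dm6 chromosome 3R), stood at 543 and 555 normalized reads in the Cap-H2 knockdown and at 880 and 873 in the Brown control, which is 62.7% of the control, a partial reduction (log2 fold change -0.67, SE 0.06, limma adjusted p = 1.5e-05). Of the neuronal markers, elav averaged 558 normalized reads over the 4 libraries, whereas the synaptic genes nSyb and brp stayed between 1.97 and 4.00 in every library and Syt1 and fne were not analysed here. The summed level of the 5 neuronal markers in the table was 818 to 836 in the knockdown and 777 to 825 in the control. The 4 neuroblast markers, led by insc, summed to 206 to 225 in the knockdown and 192 to 206 in the control. The 5 glial markers, led by loco, summed to 15542 to 15631 in the knockdown and 15531 to 15695 in the control. Over the 4 libraries loco, moody and nrv2 averaged 6681, 5349 and 3384 normalized reads, whereas repo and Gs2 averaged only 81.7 and 104. The 6 hemocyte markers, led by srp, summed to 10027 to 10135 in the knockdown and 10232 to 10694 in the control. Over the 4 libraries srp and crq averaged 6086 and 3166, whereas eater and NimC1 averaged only 60.1 and 6.49. The hemocyte gene He was not analysed here. Among the hemocyte markers Hml, named here after its values were seen, stood at 221 and 239 in the knockdown and 340 and 287 in the control (limma unadjusted p = 0.00071, adjusted p = 0.10). An unadjusted limma p under 0.05 was found for 8.13% of all tested rows. The log2 fold changes of eater, Pxn, srp and crq were -0.28, -0.11, -0.05 and -0.01, with limma adjusted p from 0.69 to 0.96. For srp and crq the groups overlapped, and NimC1 was not tested. The 5 muscle markers, led by Act57B, summed to 7131 to 7487 in the knockdown and 7308 to 7799 in the control. Act57B and Mef2 averaged 4470 and 2853 over the 4 libraries, whereas bt, sls and Mhc averaged only 71.4, 26.0 and 10.7. The pair of tendon markers, nearly all of it shot, summed to 10333 to 10353 in the knockdown and 9667 to 9992 in the control. No marker passed the adjusted threshold with all 4 libraries. Act57B had a log2 fold change of -0.09, which was -0.16 without Brown control library 2, where it passed (limma adjusted p = 0.019), and which lay between -0.18 and -0.01 when other libraries were left out. The part of these markers in the results below was not tested.

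None of the 9 integrin and linker genes passed the test at a Benjamini-Hochberg adjusted p of 0.05 over all 7690 tested rows (limma on log2 of the normalized count plus 1, 2 libraries per group), where 0.39% of all tested rows passed (0.325% higher and 0.065% lower in the knockdown). With edgeR on the recovered reads 0 of 9 passed, against 0.364% of all tested rows, and with DESeq2 0 of the 7 that received an adjusted p, against 1.72% of the rows that did. At an unadjusted limma p under 0.05 there were 4 of 9, against 8.13% of all tested rows. At that p edgeR gave 3 of 9, against 8.36% of all tested rows, and DESeq2 2 of 9, against 2.86%. The 4 in limma were the integrin subunits, with 3 higher in the knockdown (mys, mew and scb, against 4.34% of all tested rows) and 1 lower (if, against 3.78%), while 0 of the 5 linkers were among them. In edgeR mys was not among the 3 (edgeR unadjusted p = 0.064). Removal of a trend with exonic length left 3 of the 9 in limma, without mys, against 607 of all 7690 tested rows. Quantile normalization left 2 of the 9, if and scb, against 541. Whether subunits and linkers differ was not tested. For 6 of the 9 the groups had no overlap, 3 higher and 3 lower in the knockdown, against 38.7% of all tested rows (19.2% higher and 19.5% lower). The median log2 fold change was 0.08 over the 4 subunits, 0.00 over the 5 linkers, 0.01 over the 9 genes and 0.00 over all tested rows, and the median absolute log2 fold change was 0.121 over the subunits, 0.0150 over the linkers, 0.0633 over the 9 genes and 0.0567 over all tested rows.

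**Figure D1:**
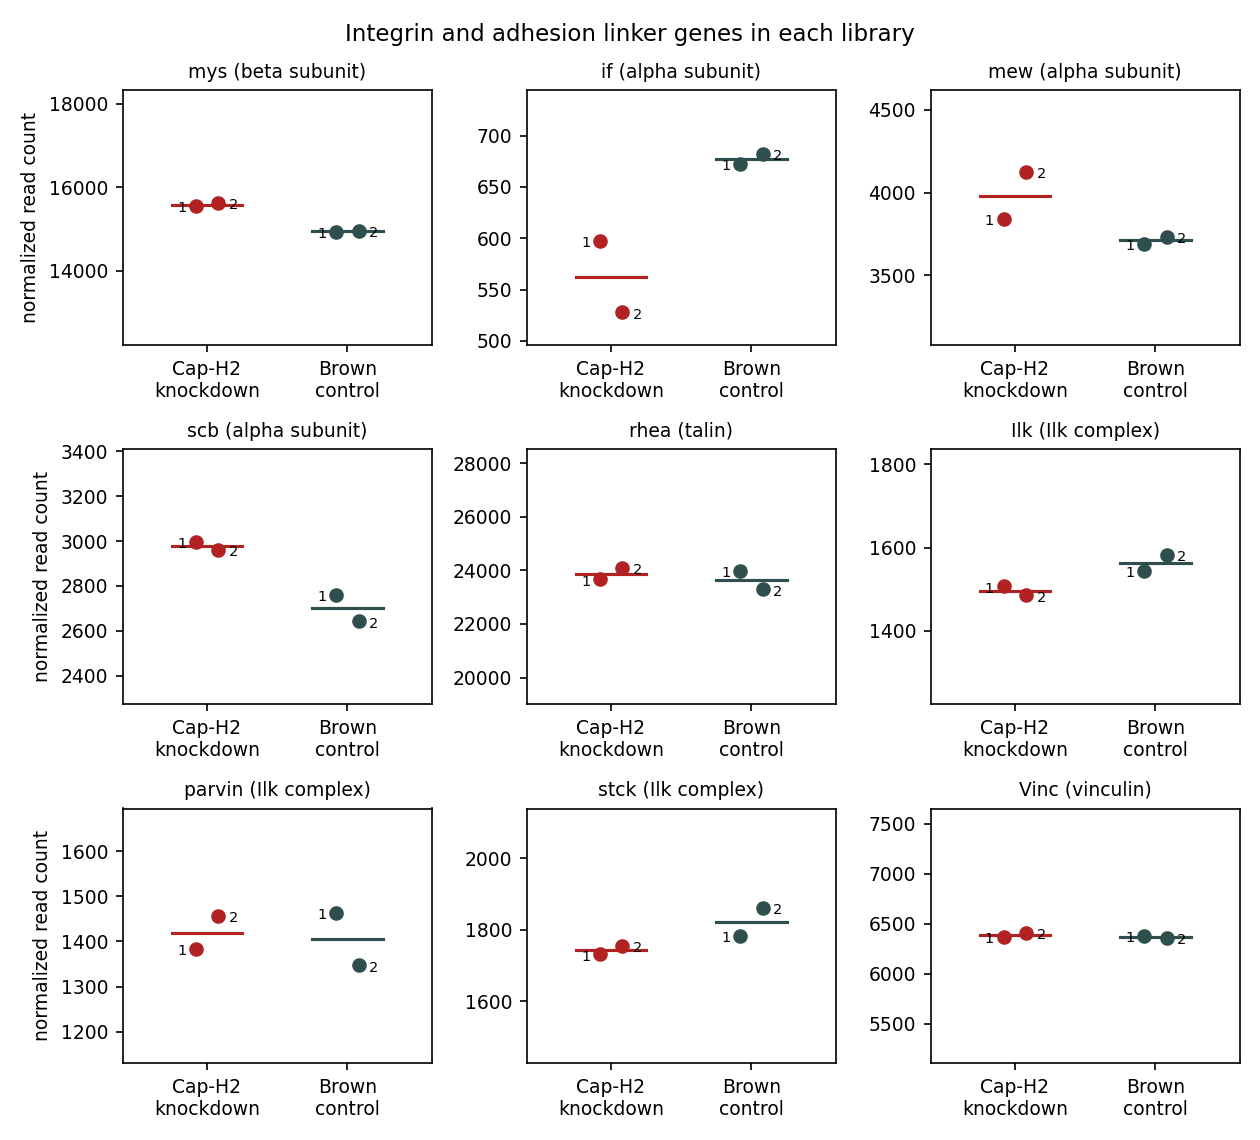
Normalized read counts (vertical axis) of the 9 genes in the Cap-H2 knockdown and the Brown control, with 1 point per library numbered by replicate and a line at each group mean. Each axis spans the same relative range around its gene's mean and does not start at 0. The groups stand apart for mys, if, mew, scb, Ilk and stck and overlap for rhea, parvin and Vinc.

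The alpha PS2 subunit gene if, inflated, a receptor chain for matrix proteins such as tiggrin, had the largest absolute log2 fold change of the 9. It lies on chromosome X at 16752189 to 16783434 on the minus strand (FBgn0001250, dm6), with 6011 bp of annotated exons in 4 transcripts. Normalized read counts of if were 597 and 528 in Cap-H2 knockdown libraries 1 and 2, against 672 and 682 in the Brown control libraries 1 and 2. Both knockdown libraries were thus below both control libraries, and the knockdown libraries lay further apart than the controls. The means were 563 ± 49.0 in the knockdown and 677 ± 7.18 in the control (SD, n = 2 each), and the log2 fold change below corresponds to 83.0% of the control. The log2 fold change was -0.27 (SE 0.07, 95% interval -0.42 to -0.12), with a limma unadjusted p of 0.0016 and an adjusted p of 0.18. It was -0.36 without Cap-H2 knockdown library 1, where the gene passed (limma adjusted p = 0.033), and -0.18 without knockdown library 2 (limma adjusted p = 0.79).

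These counts rested on few reads. The knockdown libraries held 599 reads of if (exact Poisson 95% interval 552 to 649) and 520 (476 to 567), and the control libraries 683 (633 to 736) and 682 (632 to 735). Such intervals cover counting error only. The interval of knockdown library 1 overlapped both control intervals and that of knockdown library 2 overlapped neither. Among the 1332 tested rows whose mean lay within 0.5 log2 units of that of if, 99.5% had a smaller absolute log2 fold change, given here as a description. In bulk RNA, fewer cells with a transcript and less of it per cell cannot be told apart.

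The alpha PS3 subunit gene scb, scab, showed the opposite direction. It lies on chromosome 2R at 15248784 to 15258498 on the plus strand (FBgn0286785), with 5004 bp of exons, and it had normalized counts of 2998 and 2962 in the Cap-H2 knockdown and 2761 and 2642 in the Brown control. Both knockdown libraries exceeded both control libraries, and the control libraries differed more from each other than the knockdown libraries did. The log2 fold change was 0.14 (SE 0.04, 95% interval 0.06 to 0.22, limma unadjusted p = 0.0020, adjusted p = 0.19). Leaving out 1 library gave 0.11 to 0.17, and scb passed without Brown control library 1 (limma adjusted p = 0.036).

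The laminin receptor chain alpha PS1 is encoded by mew, multiple edematous wings, on chromosome X at 13214409 to 13258490 on the minus strand (FBgn0004456), with 5204 bp of exons. It had normalized counts of 3841 and 4124 in the Cap-H2 knockdown and 3692 and 3735 in the Brown control. Knockdown library 2 was the highest and stood well apart, while knockdown library 1 was close to the controls. The log2 fold change was 0.10 (SE 0.04, limma unadjusted p = 0.020, adjusted p = 0.51), with 0.05 when knockdown library 2 was left out and 0.15 when knockdown library 1 was. Library 2 minus library 1 was 0.10 within the knockdown and 0.02 within the control on the log2 scale, so the gap inside the knockdown was as large as that between the groups. Exons of mew share 107 bp with CG15742 on the same strand, 2.06% of their length.

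The beta PS subunit is the partner of all these alpha chains and is encoded by mys, myospheroid, on chromosome X at 8061645 to 8070237 on the plus strand (FBgn0004657). The normalized counts of mys were 15551 and 15613 in the Cap-H2 knockdown and 14930 and 14957 in the Brown control. The groups did not overlap and each was tight, with means of 15582 ± 43.5 in the knockdown and 14944 ± 18.9 in the control (SD, n = 2 each). The difference was small, 104% of the control, with a log2 fold change of 0.06 (SE 0.03, limma unadjusted p = 0.044, adjusted p = 0.61). Leaving out any 1 library left this value at 0.06.

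**Figure D2:**
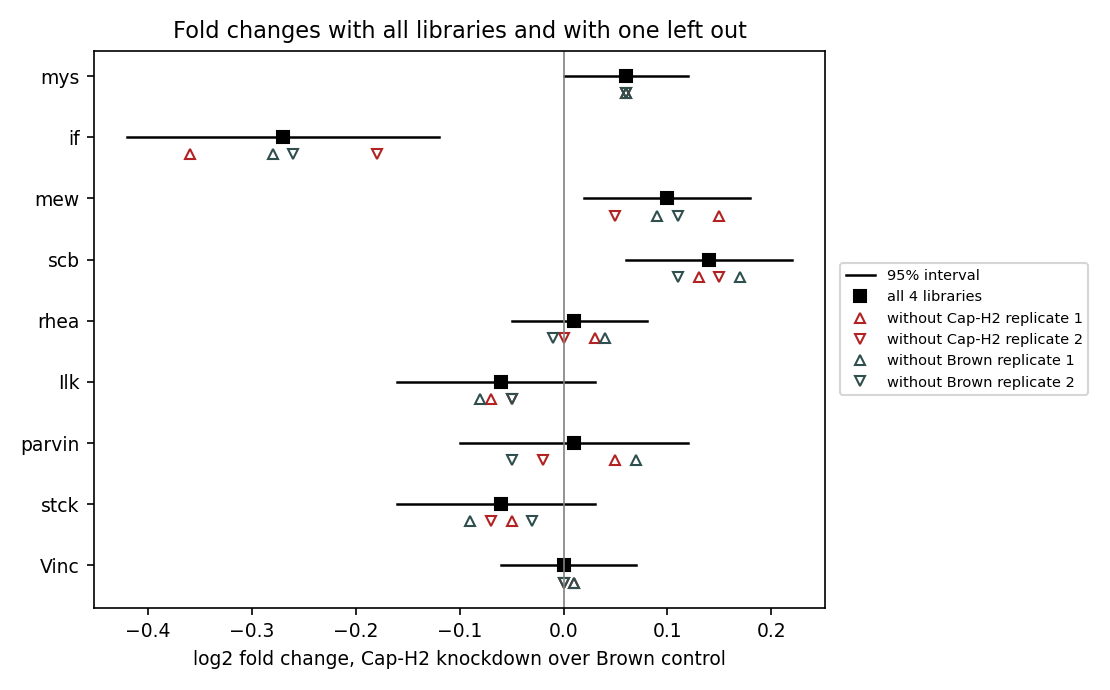
Log2 fold change of each gene, Cap-H2 knockdown over Brown control (horizontal axis), with all 4 libraries (square, with limma's 95% interval) and with 1 library left out (triangles). The values of if spread from -0.36 to -0.18 and those of scb from 0.11 to 0.17, whereas parvin and rhea fall on both sides of 0.

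The remaining fly integrin subunits were low or not analysed here. ItgaPS4, a close relative of scb whose gene begins 262 bp beyond the end of scb on the same strand, had 62.8 and 63.0 normalized reads in the knockdown and 50.2 and 63.0 in the control (limma adjusted p = 0.88). ItgaPS5, another relative, had 17.9 and 22.3 in the knockdown and 10.8 and 5.0 in the control. Both knockdown libraries of ItgaPS5 were higher, but at these few reads its log2 fold change of 1.32 had an SE of 0.45 (limma unadjusted p = 0.010, adjusted p = 0.39) and ranged from 0.83 to 1.81 with 1 library left out. Itgbn, the second beta subunit, was not analysed here. Reads of close relatives may align to more than 1 gene and may then not have been assigned to either, which was not tested. Counts of these low paralogs may be less certain for that reason, besides their few reads.

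Among the linkers, rhea, the gene of talin, had the highest normalized read count. It lies on chromosome 3L at 8545001 to 8574409 on the plus strand (FBgn0260442), with 11083 bp of exons and 8 transcripts. Its counts were 23660 and 24100 in the Cap-H2 knockdown and 23983 and 23287 in the Brown control. The control libraries bracketed knockdown library 1, so the groups overlapped. The log2 fold change was 0.01 (SE 0.03, 95% interval -0.05 to 0.08, limma adjusted p = 0.93), and its sign turned without control library 2 (-0.01) and when the dependence on exonic length was taken out (-0.01).

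Vinc, the gene of vinculin, lies on chromosome X at 2214347 to 2222567 on the minus strand (FBgn0004397). Vinc had normalized counts of 6367 and 6412 in the Cap-H2 knockdown and 6382 and 6356 in the Brown control. The 4 libraries were nearly level and the groups overlapped, with a log2 fold change of 0.00 (SE 0.03, 95% interval -0.06 to 0.07, limma adjusted p = 0.99). The interval is that of the difference between these libraries and does not show that the levels were equal.

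The Ilk complex consists of a kinase-like scaffold, Ilk, and its partners PINCH and parvin. Ilk (FBgn0028427, chromosome 3L, 21216901 to 21219240, plus strand) had 1507 and 1485 normalized reads in the Cap-H2 knockdown and 1544 and 1583 in the Brown control. The PINCH gene stck, steamer duck (FBgn0020249, chromosome 3R, 8356978 to 8359964, plus strand), had 1731 and 1755 in the knockdown and 1783 and 1862 in the control. Both genes were lower in both knockdown libraries than in either control, by a small margin. Each had a log2 fold change of -0.06, with an SE of 0.05 and a limma adjusted p of 0.76 for Ilk and an SE of 0.04 and a limma adjusted p of 0.75 for stck. The value of stck was -0.09 without Brown control library 1 and -0.03 without control library 2.

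The third partner, parvin (FBgn0052528, chromosome X, 19746041 to 19748458, plus strand), had 1383 and 1456 normalized reads in the Cap-H2 knockdown and 1464 and 1347 in the Brown control. The control libraries lay outside the knockdown libraries on both sides. Its log2 fold change was 0.01 (SE 0.05, 95% interval -0.10 to 0.12, limma adjusted p = 0.97), and it ranged from -0.05 without Brown control library 2 to 0.07 without control library 1. Exons of parvin share 269 of 1840 bp with an antisense RNA, asRNA:CR45501, and 145 bp with Alr on the same strand. The antisense RNA had 12.0 and 15.2 normalized reads in the knockdown and 7.87 and 10.0 in the control, far under the count of parvin, and Alr had 775 and 778 in the knockdown and 717 and 713 in the control. The library kit kept strand, while the strand setting of the counting was not stated. A partner of PINCH, the Ras suppressor gene ics, had 982 and 935 in the knockdown and 981 and 1012 in the control (log2 fold change -0.06, SE 0.05, limma adjusted p = 0.83).

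Per exonic length the order of the 9 genes was the same in all 4 libraries from the top to stck. Levels in reads per kilobase of annotated exons and 1000000 reads on annotated genes (RPKM) were 215 ± 0.380 in the Cap-H2 knockdown and 208 ± 0.670 in the Brown control for mys (SD, n = 2 each). The level of rhea was 133 ± 1.12 in the knockdown and 133 ± 3.36 in the control, and that of Vinc 100.3 ± 0.0499 in the knockdown and 101 ± 0.745 in the control. For stck it was 68.0 ± 0.362 in the knockdown and 71.7 ± 1.86 in the control. Below them parvin ranged over the libraries from 45.5 to 49.7, mew from 44.3 to 48.8 and Ilk from 41.2 to 44.3. The ranges of parvin and mew overlapped, whereas in each library Ilk was below both. The exonic length of parvin includes the 145 bp shared with Alr and the 269 bp shared with asRNA:CR45501. How reads there were counted is not known, so the place of parvin beside mew is uncertain. The level of scb was between 32.8 and 37.1 and that of if between 5.41 and 7.05. Since the exonic length is that of all annotated transcripts together, a gene whose cells use short transcripts is placed too low.

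Among the 8144 protein-coding rows, whose median level was 17.4 RPKM, mys stood above 96.4%, rhea above 94.0% and Vinc above 91.3%. The Ilk complex genes stood above 77.5% (Ilk), 79.9% (parvin) and 87.2% (stck), and mew and scb above 79.2% and 72.2%. The if gene stood above 28.2% and was the single one of the 9 below the median. ItgaPS4 ranged from 0.933 to 1.16 and ItgaPS5 from 0.0968 to 0.429.

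**Figure D3:**
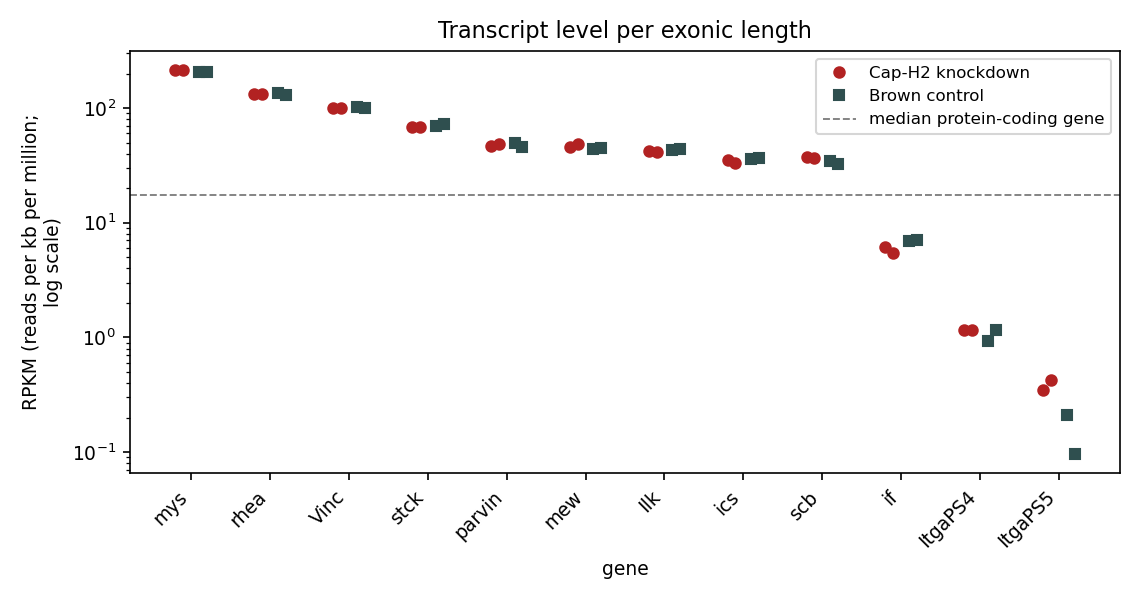
Level per exonic length in RPKM (log axis) of the 9 genes, ics and the low alpha subunits, in the Cap-H2 knockdown (circles) and the Brown control (squares), 1 symbol per library. The dashed line is the median of protein-coding genes, 17.4. The symbols run from 215 for mys to under 1 for ItgaPS5.

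The mix of alpha subunit transcripts was then expressed as shares of the summed level per length of if, mew, scb, ItgaPS4 and ItgaPS5. The share of if was 6.80% and 5.86% in the Cap-H2 knockdown and 8.04% and 8.23% in the Brown control, with no overlap. The share of mew was 50.5% and 52.9% in the knockdown and 51.0% and 52.0% in the control, and that of scb 41.0% and 39.5% in the knockdown and 39.7% and 38.3% in the control, both with overlap. On the log2 scale scb exceeded if by 2.59 and 2.75 in the knockdown and by 2.30 and 2.22 in the control. These shares use the same values as the fold changes above and are no separate evidence.

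The summed alpha level was 90.5 and 92.2 RPKM in the Cap-H2 knockdown and 86.9 and 85.7 in the Brown control. The level of mys was 2.38 and 2.33 times that sum in the knockdown and 2.39 and 2.42 times in the control, so beta transcripts exceeded those of the alpha chains in every library. Talin transcripts were 0.615 and 0.624 times those of mys in the knockdown and 0.650 and 0.630 times in the control. Within the Ilk complex, stck was 1.61 and 1.66 times Ilk in the knockdown and 1.62 and 1.65 times in the control, and parvin 1.11 and 1.18 times in the knockdown and 1.14 and 1.03 times in the control. An exact permutation test of 2 against 2 libraries cannot go below p = 0.333, so these ratios are given without a test.

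**Figure D4:**
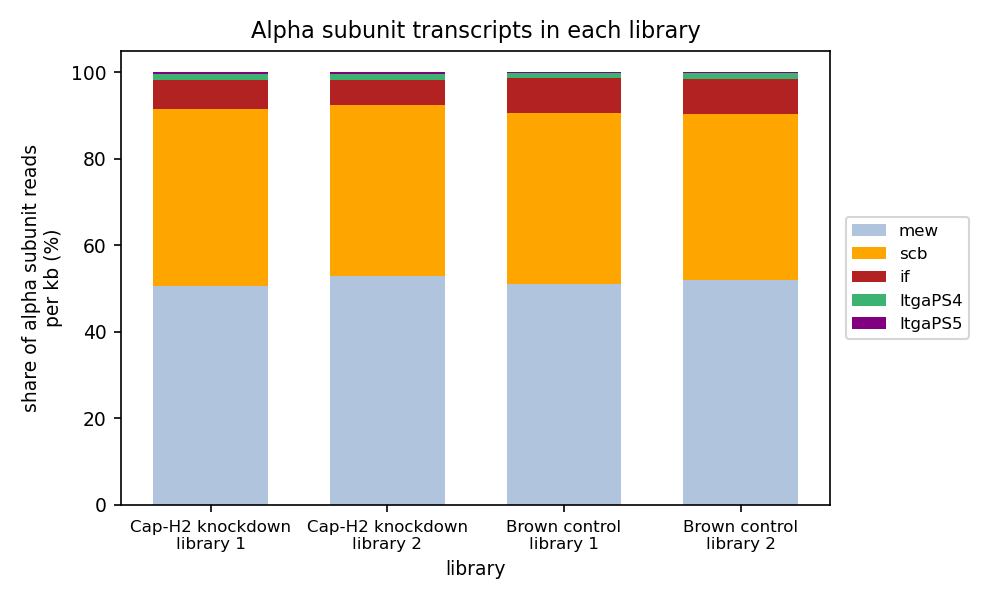
Share of each alpha subunit gene (percent of the summed level per kb, vertical axis starting at 0) in each library, Cap-H2 knockdown on the left and Brown control on the right. The if segment is 6.80% and 5.86% in the knockdown and 8.04% and 8.23% in the control.

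Other genes of integrin adhesion were counted from lists made for this purpose. Of the 9 further linkers tested, 0 passed limma over all rows and 1 had an unadjusted p under 0.05, against 0.39% and 8.13% of all tested rows, a share near that of all rows. Of the 9, edgeR called 0, and DESeq2 called 0 of the 5 that received an adjusted p. The 1 was Actn, the actin crosslinker alpha-actinin, with 3009 and 3043 normalized reads in the Cap-H2 knockdown and 3167 and 3304 in the Brown control (log2 fold change -0.10, SE 0.04, limma adjusted p = 0.52). Pax, the adaptor paxillin, and wech, which connects talin with Ilk, had positive values of 0.07 (SE 0.03) and 0.09 (SE 0.04), with limma adjusted p of 0.62 and 0.65, and leaving out knockdown library 2 gave wech 0.03 while leaving out knockdown library 1 gave it 0.14. Over all 14 linkers, the 5 described above included, 7 values were positive and 7 negative, with a median log2 fold change of -0.01.

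Of 11 genes of integrin ligands and of proteins beside them in the matrix and on cells, 0 passed limma and 1 had an unadjusted limma p under 0.05, near the 0.39% and 8.13% of all tested rows. Of the 11, edgeR called 0, and DESeq2 called 0 of the 8 that received an adjusted p. The gene at the unadjusted threshold was LanB1, the laminin beta chain, with 59130 and 61336 normalized reads in the Cap-H2 knockdown and 63061 and 64484 in the Brown control (log2 fold change -0.08, SE 0.03, limma adjusted p = 0.42). The perlecan gene trol and the laminin alpha chain gene wb each had a log2 fold change of 0.06 (SE 0.03), with limma adjusted p of 0.62 and 0.65. The list had 5 positive and 6 negative values and a median of 0.00.

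Of 17 genes of integrin activation and signalling, 0 passed limma and 0 had an unadjusted limma p under 0.05, against 0.39% and 8.13% of all tested rows. Of the 17, edgeR called 0, and DESeq2 called 0 of the 14 that received an adjusted p. The list had 12 positive and 5 negative values and a median log2 fold change of 0.01. The smallest unadjusted p-values belonged to Rho1, a GTPase of actin contraction (0.06, SE 0.03), Ced-12, an ELMO protein that acts with Rac (0.10, SE 0.06), and pico, an adaptor of the RIAM and lamellipodin family (0.05, SE 0.03), with limma adjusted p of 0.62, 0.68 and 0.72. Ced-12 had 1389 and 1404 normalized reads in the knockdown and 1215 and 1393 in the control, and its log2 fold change was 0.00 without control library 1 and 0.20 without control library 2.

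Cadherin adhesion, which joins cells to each other rather than to the matrix and shares actin as its anchor, gave 0 of 5 past limma and 1 at an unadjusted limma p under 0.05, against 0.39% and 8.13% of all tested rows. Of the 5, edgeR called 0, and DESeq2 called 0 of the 3 that received an adjusted p. The E-cadherin gene shg had 2359 and 2368 normalized reads in the knockdown and 2200 and 2236 in the control (log2 fold change 0.09, SE 0.04, limma adjusted p = 0.56). The values of alpha-Cat, a relative of vinculin that ties cadherins to actin, and p120ctn were -0.01 (SE 0.03) and 0.05 (SE 0.15), and p120ctn lay between -0.13 and 0.23 with 1 library left out.

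**Figure D5:**
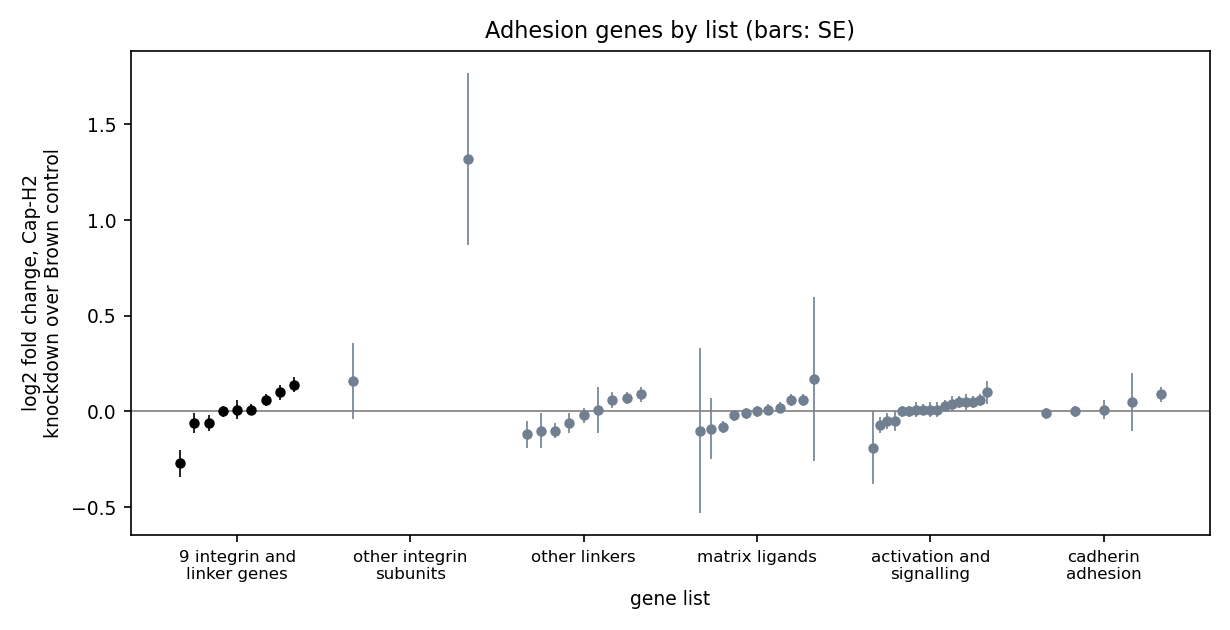
Log2 fold change of every tested gene in each adhesion list, Cap-H2 knockdown over Brown control (vertical axis), in order of value within a list, with bars for the SE. Of the 9 integrin and linker genes if is lowest at -0.27 and scb highest at 0.14, and the point at 1.32 is the low-count gene ItgaPS5.

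Of the 9 genes, 5 lie on chromosome X (mys, if, mew, parvin and Vinc), 2 on 3L, 1 on 2R and 1 on 3R. The median log2 fold change of the 1337 tested rows on X was 0.00, and the 5 genes on X had values on both sides of it. In the authors' deposited table all 9 genes had an adjusted p of 0.999. The unadjusted p in the authors' deposited table was 0.012 for scb, 0.016 for if, 0.056 for mew and 0.070 for mys, and between 0.34 and 0.91 for the linkers. The deposited log2 fold changes were 0.018 for scb, -0.013 for if, 0.005 for mew and 0.003 for mys. These had the same signs as those given above but were much nearer to 0, and the reason was not tested.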

How the data were processed

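The authors deposited normalized read counts per library, a signal that equals read counts divided by a size factor. Whole reads came back for 100% of values in all 4 columns, within 0.001 reads. The submitters' processing notes name fastp, HISAT2, HTSeq and dm6, with versions, annotation and strand setting not given in the sources used here. A second table holds the authors' deposited log2 fold changes and p-values. HTSeq's 3 special rows, 11.5% to 13.9% of reads, were left out. Ensembl's annotation BDGP6.54, in dm6 coordinates, was matched to the rows, 8649 by symbol and 39 by synonym, with 118 unmatched rows, element families included.

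The test was limma 3.58.1 in R 4.3.3 (two-sided, with empirical Bayes and a mean trend) on log2 of normalized count + 1 for 7690 rows (minimum mean 10), adjusted by Benjamini-Hochberg over all of them. The fit had 2 residual and 14.4 prior degrees of freedom, so limma gave the spread of rows at a similar level more weight than a gene's own. Fold changes on this scale understate those of low genes. The scripts were tested on simulated data. Reads per member and library ranged from 520 to 24373, a counting half-width of 8.69% to 1.26%.

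Alternatives were other pseudocounts and minimums, median centring, TMM, quantile normalization, robust empirical Bayes, removal of a trend with exonic length, a replicate block, each library left out (the lone library then being assumed to vary like the other group), and edgeR 4.0.16 and DESeq2 1.42.0 on the whole reads. Every pair of libraries differed beyond sampling noise (chi-square per degree of freedom 2.97 to 7.96). The value was 2.97 between the knockdown libraries and 5.08 between the control libraries. Against knockdown libraries 1 and 2 it was 4.12 and 4.27 for control library 2, and 6.61 and 7.96 for control library 1. Control library 2 was thus closer to both knockdown libraries than to the other control library, a limit on the comparisons between groups. The text names the 9 members, the 3 genes with the smallest p of each further list, the remaining integrin subunits, ics, Cap-H2 and the most abundant marker of each cell type list. Outside that rule it names copia, Hml, the other neuroblast, glial, hemocyte and muscle markers and the near-absent neuronal markers. Genes that overlap exons of members or of Cap-H2 are also named outside it. Members and lists were chosen with earlier results of these data known.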

Additional observations from a re-analysis of the deposited data

How the results depend on the processing

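Over all rows 30 genes were called, and the count was 14 with quantile normalization, 59 with robust empirical Bayes and between 41 and 127 with 1 library left out. Of the 9 members 0 were called, and between 0 and 1 with 1 library left out (if without Cap-H2 knockdown library 1, scb without Brown control library 1), which likewise gave 0 to 1 for the integrin subunit list. The replicate numbers were not shown to pair the libraries: the difference between library 2 and library 1 correlated across 7690 rows with Pearson's r = -0.027 between the groups, and only 2 pairs exist. With the replicate block limma called 146 genes and edgeR 160, among them 2 members in each, if and scb, so also 2 of the integrin subunit list, and edgeR with the block called 2 matrix ligands, LanB1 and trol. The median log2 fold change of the members was 0.03 with median centring, 0.00 after removal of the length trend and between -0.01 and 0.04 with 1 library left out. The sign turned for rhea after removal of the length trend (-0.01) and for Vinc with quantile normalization (-0.03, against 0.00), and with 1 library left out for rhea (-0.01 to 0.04), parvin (-0.05 to 0.07), p120ctn (-0.13 to 0.23) and the marker insc (-0.01 to 0.21). The causes were not tested. Without the replicate block, if had log2 fold changes from -0.36 to -0.18 and scb from 0.11 to 0.17. DESeq2 gave no adjusted p to 5367 rows, if and parvin among them. Among the 9 members counting error limits if most, at 520 to 683 reads per library.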
